A study of Homo sapiens with 6 samples.

Results

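This is an account of 10 genes of bone morphogenetic protein (BMP) and transforming growth factor beta (TGF-beta) signalling in ENL-depleted colon cancer cells. They are the ligands BMP4 and BMP2, the pseudoreceptor BAMBI, the inhibitory SMADs SMAD6 and SMAD7, the co-repressors TGIF1 and SKIL, and the target genes ID1, ID2 and ID3. They were taken by exact gene symbol from a table of 31628 genes, and all 10 were found. BMP2 was listed at 0 in every library and the other 9 were above 0 in every library.

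Polyadenylated RNA was sequenced from HCT116, a human colon cancer line, in which ENL carries an auxin-inducible degron (AID). ENL, the product of MLLT1, binds acylated histones and works with transcription elongation complexes. The labels speak of AID clones selected with puromycin and blasticidin, but do not say how many clones the libraries come from. All 6 libraries are labelled ENL-AID and were grown in RPMI1640 with 10% fetal bovine serum. The 2 control libraries were untreated. The 2 IAA libraries were given the auxin indole-3-acetic acid, at what the labels give as 500 um, for 3 h. The 2 washout libraries had the same IAA exposure, a PBS wash and then 48 h in normal medium. No library of cells without the degron given IAA was analysed here, so an effect of IAA itself and an effect of ENL loss cannot be told apart. The labels do not say whether the 2 libraries of a group came from separate cultures, and p-values measure only the spread between these samples.

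BMP and TGF-beta ligands bind paired serine/threonine kinase receptors, which phosphorylate SMAD1, SMAD5 and SMAD9 on the BMP side and SMAD2 and SMAD3 on the TGF-beta side. These pair with SMAD4 and act on target genes, among them ID1 to ID3 and the pathway's own inhibitors SMAD6, SMAD7, SKIL and BAMBI. In the colon, BMP signalling is known for promoting differentiation towards the top of the crypt, while many colon cancers with unstable microsatellites, HCT116 among them, carry inactivating mutations of the TGF-beta receptor gene TGFBR2.

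Upstream bases are shown for some of the members called lower after IAA, namely the ligand BMP4, the inhibitory SMAD6 and the target ID1. TGIF1 was also called lower, as were ID2 and ID3 by voom, and their bases are not shown. They are the 250 bases before the RefSeq start site, 5′ to 3′ on the gene's strand, in assembly GRCh38.p14. SMAD6 lies at chr15:66701986-66702235, plus strand. ID1 lies at chr20:31605039-31605288, plus strand. BMP4 has 3 start sites in the RefSeq table, and the most upstream of them is shown, chr14:53955051-53955300, minus strand. Of those not shown, the entry at chr14:53953396-53953645 held CAGACA. The entry at chr14:53954489-53954738 held none of the letters searched for. Capitals mark the letters GTCTAGAC in SMAD6 and GGCGCC in BMP4.
SMAD6: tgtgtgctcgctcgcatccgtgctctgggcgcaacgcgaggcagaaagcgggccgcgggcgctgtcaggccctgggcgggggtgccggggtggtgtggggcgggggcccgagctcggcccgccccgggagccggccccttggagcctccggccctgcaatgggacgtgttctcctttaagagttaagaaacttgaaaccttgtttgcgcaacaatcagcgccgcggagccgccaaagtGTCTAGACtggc
ID1: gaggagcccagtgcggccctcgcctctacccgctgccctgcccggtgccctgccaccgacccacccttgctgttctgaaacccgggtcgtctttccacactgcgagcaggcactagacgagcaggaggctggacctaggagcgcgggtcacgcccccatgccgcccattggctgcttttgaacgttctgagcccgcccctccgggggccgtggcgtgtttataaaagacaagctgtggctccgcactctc
BMP4: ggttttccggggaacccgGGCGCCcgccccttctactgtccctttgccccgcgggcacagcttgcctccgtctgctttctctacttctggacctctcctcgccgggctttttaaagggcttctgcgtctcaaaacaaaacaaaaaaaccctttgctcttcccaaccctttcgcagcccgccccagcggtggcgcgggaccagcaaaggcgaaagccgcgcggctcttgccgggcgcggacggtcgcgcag

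The searches covered both strands of the 250 bases. GGCGCC, a GC-rich core to which BMP SMADs are known to bind, was in 16.4% of all 35116 RefSeq promoter entries and in 3 of the members' 19 entries, from BMP4, SKIL and BAMBI. The BAMBI entry held it 3 times. CAGACA, the CAGA box bound by SMAD3 and SMAD4, was in 13.6% of all entries and in 4 of the members' entries, 1 of BMP4 and 3 of TGIF1. The composite of the GC-rich and GTCT elements with a gap of 5 bases, GGCGNCNNNNNGTCT, was in 0.256% of all entries and in 0 of the members' entries. GTCTAGAC, a SMAD-binding palindrome that was searched for only after the SMAD6 bases had been seen, was in 0.182% of all entries and in 1 member entry, beginning 12 bases before the SMAD6 start. These are matches of letters in a short window, and the BMP-responsive enhancer described for ID1 lies farther upstream. RefSeq entries were found for 9 of the 10 members. BMP2 had none.

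Depth was even, with library totals of 16442840 to 16770850 reads as read from the steps of the deposited FPKM values (fragments scaled to gene length and library size). Between 8220 and 8406 genes per library had an FPKM of at least 1. MLLT1 transcript was at 0.412 and 0.427 FPKM in control, 0.404 and 0.358 under IAA and 0.413 and 0.384 following washout. The degron acts on the protein, so this transcript does not check the depletion. CYP1A1, a target of the aryl hydrocarbon receptor, was 49.8-fold higher with IAA than in control and was back at 0.572 and 0.505 FPKM after washout, which separates the IAA libraries from the others as labelled. Of 9 epithelial markers 7 had a mean FPKM of at least 1, while CEACAM5 and CDX1 were at 0. Fibroblast, endothelial and blood markers had 0 genes at that level among 6, 3 and 4 in the table. The epithelial markers summed to 336 to 346 FPKM in control, 268 to 272 with IAA and 324 to 340 after washout. They moved in the same direction as the members described here, and their part in these results was not tested.

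Among the members, transcripts of the ligand BMP4, the inhibitory SMAD6, the co-repressor TGIF1 and the target ID1 fell after 3 h of IAA, to between 0.375 and 0.716 of the control level, and all 4 rose again after washout. The main test, limma on log2(FPKM + 1), covered genes whose FPKM averaged 1 or more over the 6 libraries, which 6 of the 10 members reached. By it 3 of these 6 fell with IAA (BMP4, ID1 and TGIF1) and 0 rose, beside 6.49% of all 8317 tested genes called lower and 6.64% called higher. All 6 lay below control without overlap, beside 28.2% of those genes. With any 1 control or IAA library left out, far fewer of all genes were called by limma. BMP4 kept its call there, and ID1 and TGIF1 lost theirs. With any 1 library left out, the log2 change ran from -1.037 to -0.997 for BMP4, -0.49 to -0.463 for ID1 and -0.459 to -0.408 for TGIF1. The FPKM values divide by the whole gene span, introns included, which lowers the FPKM of long genes. SMAD6, SMAD7 and SKIL stayed under the FPKM limit, with 55 to 326 reads per library. They were tested with voom on the whole reads recovered from the FPKM, which took 9 members. By voom 6 of 9 fell (the same 3, SMAD6, ID2 and ID3) and 0 rose, beside 10.2% of all 14811 tested genes called lower and 13.7% called higher. The median log2 change was -0.35 over the 6 members and 0.01 over all genes by limma. By voom it was -0.41 over the 9 members and 0.04 over all genes. The members were chosen with earlier results of these data known, so these shares and medians are not an independent test.

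**Figure D1:**
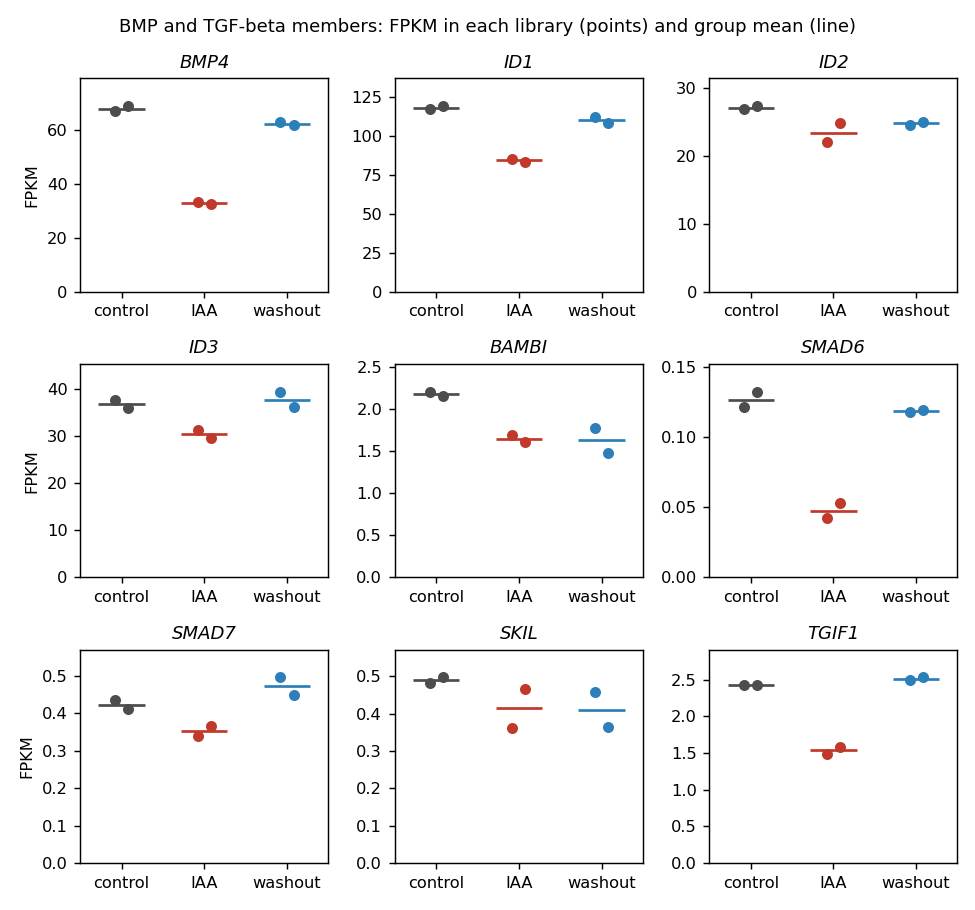
FPKM of the 9 members above 0 in each library (points) with the group mean (line), for control, IAA and washout, each panel with its own axis from 0. The IAA points lie under the control points in all 9 panels. The washout points return towards control for BMP4, ID1, ID3 and SMAD6 and lie above control for SMAD7 and TGIF1. For ID2, BAMBI and SKIL the washout points overlap the IAA points.

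The ligand BMP4 was the member with the most reads. Its FPKM was 66.8 and 68.7 in control, 33.3 and 32.6 under IAA and 63.0 and 61.6 following washout. Both IAA libraries lay at about 0.487 of control, and no 2 groups overlapped. The change with IAA was -1.02 ± 0.039 (log2, SE) with an adjusted p of 0.00167 by limma, from 67.7 ± 1.34 FPKM (SD, n = 2) to 33.0 ± 0.531. After washout BMP4 rose by 0.90 ± 0.039 (limma, adjusted p = 0.00277), to 62.3 ± 1.04 FPKM. Washout stayed under control in both libraries, with a difference of -0.12 on the log2 scale (95% interval -0.22 to -0.02) that did not pass after adjustment (limma, adjusted p = 0.524). These are bulk libraries, in which fewer BMP4-expressing cells and less BMP4 RNA per cell cannot be told apart. BMP2, the close relative that signals through the same receptors, had 0 reads in all 6 libraries. A count of 0 allows up to 3 reads per library, for counting error only. Of 10 genes that every cell uses 0 were listed at 0 in any library. That check covers only those genes and does not show that the 0 of BMP2 is a true absence.

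BAMBI, a receptor-like protein without a kinase domain that dampens signalling, had 205 and 202 reads (control), 156 and 150 (IAA) and 166 and 138 (washout). In FPKM this was 2.2 and 2.15, then 1.69 and 1.6, then 1.77 and 1.48. Both treated groups lay under control in every library, and the washout libraries spanned the IAA libraries. The IAA difference was -0.27 ± 0.063 (limma, adjusted p = 0.0599), and -0.41 (95% interval -0.73 to -0.08) by voom with an adjusted p of 0.0586, so it passed neither test. It passed by limma when either washout library was left out (adjusted p = 0.0494). Washout against IAA was -0.01 with a 95% interval of -0.18 to 0.15 (limma, adjusted p = 0.914). Washout against control was -0.28, with an interval of -0.44 to -0.11 and an adjusted p of 0.507 by limma.

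The inhibitory SMADs act at the receptors and on other SMADs, SMAD6 mainly against BMP signals and SMAD7 against both branches. SMAD6 had 160 and 177 reads (control), 55 and 71 (IAA) and 158 and 158 (washout). The IAA libraries were far below the other 4, which lay close together. SMAD6 had the lowest IAA-to-control ratio of the members, 0.375 from the FPKM means of 0.127 ± 0.00821 and 0.0475 ± 0.00788 (SD, n = 2). Its change by voom was -1.42 ± 0.21 (SE, 95% interval -1.85 to -0.98, adjusted p = 4.92e-06). The rise after washout was 1.32 ± 0.22 (voom, adjusted p = 1.5e-05). Washout and control differed by -0.09 with an interval of -0.42 to 0.24.

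SMAD7 had 223 and 213 reads (control), 172 and 190 (IAA) and 256 and 231 (washout). The IAA libraries were the lowest and the washout libraries the highest, with no overlap. The IAA difference of -0.26 (voom, 95% interval -0.56 to 0.04, adjusted p = 0.212) did not pass. The rise after washout did, at 0.42 ± 0.14 (voom, adjusted p = 0.0294). It no longer passed when either IAA library or the first washout library was left out (voom, adjusted p = 0.176, 0.0683 and 0.182), nor by limma with lower FPKM limits (adjusted p = 0.0808 and 0.0973). Washout against control was 0.16 (interval -0.12 to 0.44). The difference between the IAA changes of SMAD6 and SMAD7 was not tested.

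TGIF1, a homeodomain co-repressor of SMAD2 and SMAD3, was at 2.42 and 2.42 FPKM in control, 1.49 and 1.58 under IAA and 2.49 and 2.53 following washout. The IAA libraries lay below all others, and washout was slightly above control without overlap. The fall was -0.43 ± 0.034 on the log2(FPKM + 1) scale (limma, adjusted p = 0.00768), a scale that shrinks changes at this low FPKM. On reads it was -0.66 ± 0.061 (voom, adjusted p = 2.18e-10). The rise after washout was 0.47 by limma (adjusted p = 0.00639) and 0.71 by voom (adjusted p = 3.3e-11). Leaving out any 1 library of the groups compared ended the limma calls (adjusted p 0.0514 to 0.0674 and 0.0509 to 0.0532) and no voom call. TGIF1P1, a processed copy whose reads the counting could have split with TGIF1, had 75 and 88 reads (control), 61 and 45 (IAA) and 74 and 76 (washout). These are few beside the 1146 to 1972 reads of TGIF1.

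SKIL, the co-repressor SnoN, had 314 and 326 reads (control), 233 and 306 (IAA) and 299 and 237 (washout). All 4 treated libraries were under both controls, and IAA and washout overlapped. The IAA difference was -0.25 (voom, 95% interval -0.52 to 0.02, adjusted p = 0.179) and washout against IAA was -0.01 (interval -0.29 to 0.27). The TGIF1 change of -0.66 lies outside the SKIL interval for IAA, but the difference between the TGIF1 and SKIL changes was not tested.

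ID1, ID2 and ID3 encode helix-loop-helix proteins without a DNA-binding region that block differentiation factors, and they are the best-known immediate targets of BMP. ID1 was at 117 and 119 FPKM in control, 85.0 and 83.5 under IAA and 112 and 108 following washout. No groups overlapped, and washout lay between the other 2. ID1 fell by 0.48 ± 0.038 on the log2 scale with IAA (limma, adjusted p = 0.00768) and rose by 0.38 ± 0.038 after washout (adjusted p = 0.0113). Both limma calls were lost when any 1 library of the groups compared was left out (adjusted p 0.0577 to 0.0686 and 0.0559 to 0.0697), and both voom calls stayed in every such fit. Washout against control was -0.10 (95% interval -0.20 to 0.00; limma, adjusted p = 0.552).

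ID3 was at 37.6 and 35.8 FPKM in control, 31.2 and 29.6 under IAA and 39.3 and 36.0 following washout. The IAA libraries were the lowest, and control and washout overlapped. The IAA difference of -0.27 ± 0.061 missed the limit by limma (adjusted p = 0.056) and passed on reads at -0.28 (voom, adjusted p = 0.00419). The rise after washout was 0.30 ± 0.061 (limma, adjusted p = 0.0423), and it lost its call by limma whenever any 1 of the 6 libraries was left out (adjusted p 0.0805 to 0.157). It was also lost with lower FPKM limits (adjusted p = 0.0611 and 0.0868) and with only the compared groups in the fit (0.0806). By voom the rise passed at 0.31 (adjusted p = 0.00125), and the fall with IAA was lost without the first control or the second IAA library (adjusted p = 0.0627 and 0.0564).

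ID2 was at 26.9 and 27.3 FPKM in control, 22.0 and 24.8 under IAA and 24.6 and 25.0 following washout. Control was the highest group, and the second IAA library lay within the washout range. The IAA difference was -0.21 ± 0.065 by limma (adjusted p = 0.112) and -0.21 ± 0.055 by voom (adjusted p = 0.00404). The voom call was lost without the second control or the first IAA library (adjusted p = 0.0533 and 0.198). Washout against IAA was 0.08 with an interval of -0.09 to 0.25. ID2 shares exon bases with its antisense gene ID2-AS1, and no source used here gives the strand setting of the counting. The other members have no such overlap in GENCODE 29.

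**Figure D2:**
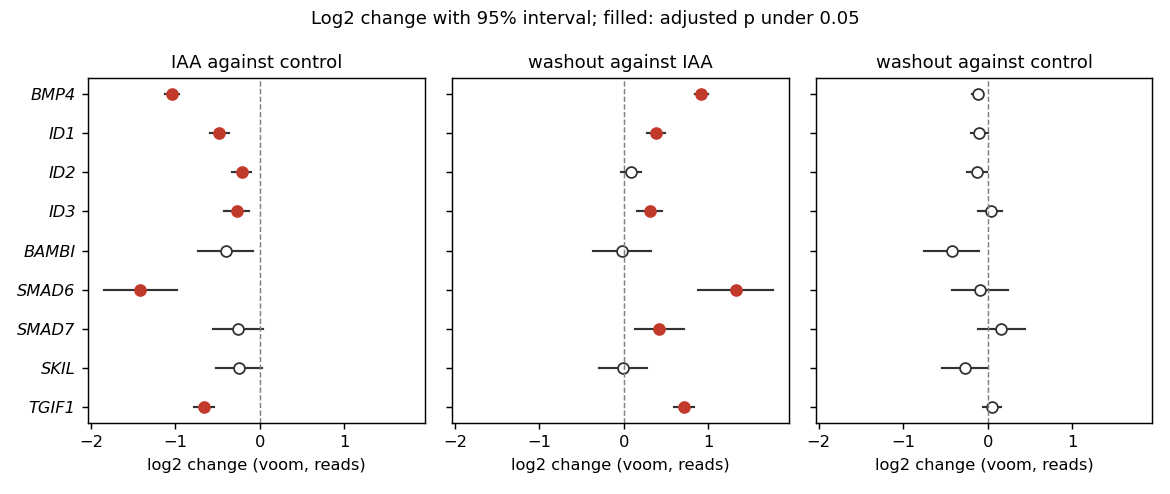
Log2 change of each of the 9 members with its 95% interval, by voom on recovered reads, for IAA against control (left), washout against IAA (middle) and washout against control (right). Filled points passed an adjusted p of 0.05, which holds for 6 members on the left, 6 in the middle and 0 on the right, and SMAD6 and BMP4 lie farthest from 0 in the left and middle panels.

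BMP4, ID1, ID3, SMAD6 and TGIF1 fell with IAA and rose after washout by voom, while ID2 fell without a called rise and SMAD7 rose without a called fall. By limma 4 of the 6 tested members rose against IAA (BMP4, ID1, ID3 and TGIF1), beside 7.73% of all genes called higher and 6.65% called lower. With any 1 IAA or washout library left out, far fewer of all genes were called by limma. BMP4 kept its call there, and ID1, ID3 and TGIF1 lost theirs. The same 4 lay above IAA without overlap, beside 31.4%. By voom 6 of 9 did (also SMAD6 and SMAD7), and 0 fell, beside 11.6% called higher and 13.5% called lower. This comparison and the first share the IAA libraries, so a low or high IAA library moves both. Against control, 0 of 6 members by limma and 0 of 9 by voom were called, beside 0.0% of 8317 genes and 0.621% of 14811. At an unadjusted p under 0.05, 750 genes differed by limma. BMP4, ID1, ID2 and BAMBI lay below control in both washout libraries, 4 of the 6 members at or above the FPKM limit, beside 17.8% of all genes so placed. TGIF1 lay above control, beside 24.4%.

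The other genes of the pathway went in both directions. Of 100 listed genes in 7 roles, 35 were tested by limma with IAA against control. Of these 6 rose, 8 fell and 21 did not pass, beside 6.64% of all genes called higher and 6.49% called lower. By voom 16 of 70 rose and 12 fell, beside 13.7% and 10.2% of all genes. Their median log2 change by voom was 0.07. These lists, like the members, were chosen with earlier results of these data known. The contrast between members and lists was not tested.

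Few ligands, receptors and secreted proteins reached the FPKM limit, and by limma 0 of 3 other ligands, 0 of 3 receptors and 0 of 5 secreted antagonists and latency proteins were called with IAA. By voom more were tested: 2 of 9 other ligands rose and 0 fell, 5 of 14 receptors rose and 1 fell, and of 9 antagonists and latency proteins 0 rose and 1 fell, beside 13.7% of all genes called higher and 10.2% called lower. AMH, anti-Müllerian hormone, was at 6.75 and 5.22 FPKM in control and 7.7 and 7.61 with IAA (0.32, limma adjusted p = 0.13, and 0.37, voom adjusted p = 0.0292). GDF9, an oocyte factor whose exons overlap those of UQCRQ on the other strand, was at 4.17 and 4.3 (control) and 4.51 and 4.29 (IAA). TGFBR1, the type I TGF-beta receptor, was at 1.51 and 1.45 (control) and 1.68 and 1.76 (IAA) (0.13, limma adjusted p = 0.0798, and 0.22, voom adjusted p = 0.0111). AMH and TGFBR1 both passed by voom and not by limma.

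Among genes under the FPKM limit and named here after their values were seen, the type II receptor TGFBR2 had 890 and 809 reads (control), 457 and 467 (IAA) and 900 and 875 (washout). The IAA libraries were at about 0.546 of control, a fall of 0.87 ± 0.089 on the log2 scale (voom, adjusted p = 2.07e-09), and TGFBR2 rose by 0.94 after washout. LTBP2, a latent TGF-beta binding protein family member of the extracellular matrix, had 375 and 396 reads (control), 155 and 134 (IAA) and 364 and 340 (washout). Its change was -1.41 ± 0.14 and then 1.28 ± 0.15 (voom, adjusted p = 2.15e-09 and 2.37e-08), close in size to those of SMAD6. ACVR1C, the type I receptor ALK7, went the other way, with 67 and 52 reads (control), 113 and 114 (IAA) and 70 and 49 (washout) (0.94 ± 0.24, voom, adjusted p = 0.00321).

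Of the signal-carrying SMADs, SMAD3 was the 1 called by limma among 3 tested, beside 6.64% of all genes called higher and 6.49% called lower. It rose from 1.4 and 1.35 FPKM in control to 1.98 and 2.0 with IAA, and was at 1.58 and 1.49 after washout (0.33 ± 0.037, limma, adjusted p = 0.0137; back by -0.24, adjusted p = 0.0241). SMAD2 was at 1.38 to 1.4 FPKM in control and 1.39 to 1.4 with IAA, a log2 difference of 0.00 with an interval of -0.08 to 0.08. SMAD5, which carries BMP signals, differed by -0.08 with an interval of -0.23 to 0.06 (limma, adjusted p = 0.378). By voom 2 of 6 signal-carrying SMADs rose with IAA and 0 fell, beside 13.7% of all genes called higher and 10.2% called lower. They were SMAD3 (0.53, voom, adjusted p = 6.18e-11) and SMAD1 (0.26, voom, adjusted p = 0.0396). SMAD1, also on the BMP side, lay under the FPKM limit and was named after its values were seen.

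By limma 2 of 7 tested intracellular inhibitors fell and 2 rose, beside 6.49% of all genes called lower and 6.64% called higher. By voom 4 of 12 fell and 3 rose, beside 10.2% of all genes called lower and 13.7% called higher. SMURF2, a ubiquitin ligase for SMADs and receptors, fell from 6.36 and 6.22 FPKM to 3.9 and 3.95 and was at 6.22 and 6.28 after washout (-0.57 ± 0.033, limma, adjusted p = 0.00356). CTDSP1 and CTDSP2, small phosphatases that act on SMADs and on RNA polymerase II, went apart. CTDSP1 fell by 0.49 (limma, adjusted p = 0.00968) and CTDSP2 rose by 0.35 (adjusted p = 0.0279). SKI, the paralog of SKIL, rose from 2.08 and 2.07 FPKM to 2.55 and 2.68 (0.23 ± 0.037, limma, adjusted p = 0.0256). The SKIL difference was -0.25 by voom and did not pass, against a rise of SKI by 0.33 on the same scale (voom, adjusted p = 1.93e-06). The difference between the SKI and SKIL changes was not tested.

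The homeobox genes MSX1 and MSX2 were the 2 BMP targets outside the members that limma tested, and they moved in opposite directions. By voom 5 were tested, of which 1 fell and 1 rose with IAA, again MSX1 and MSX2. Beside them, voom called 10.2% of all genes lower and 13.7% higher. MSX1 was at 21.1 and 23.0 FPKM in control, 14.6 and 14.8 under IAA and 24.3 and 23.0 following washout. MSX2 was at 0.918 and 1.29 in control, 1.92 and 2.01 under IAA and 0.978 and 1.08 following washout. For both, the IAA libraries stood apart from the other 4. MSX1 fell by 0.56 ± 0.057 (limma, adjusted p = 0.0118), and MSX2 rose by 0.50 ± 0.093 (limma, adjusted p = 0.0355). Limma called 6.49% of all genes lower and 6.64% higher. Its log2(FPKM + 1) scale shrinks changes at the low FPKM of MSX2. On reads the change was -0.589 for MSX1 and 0.845 for MSX2 (voom, adjusted p = 1.94e-08 and 0.000426).

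By limma 5 of 12 tested TGF-beta targets fell and 2 rose, beside 6.49% and 6.64% of all genes. By voom 5 of 15 fell and 3 rose, beside 10.2% and 13.7% of all genes. THBS1, the matrix protein thrombospondin 1 that activates latent TGF-beta, fell from 18.0 and 17.9 FPKM to 10.9 and 10.1 and was at 16.2 and 17.5 after washout (-0.72 ± 0.057, limma, adjusted p = 0.00768). BHLHE40, a helix-loop-helix repressor, fell from 8.29 and 8.35 to 4.8 and 4.72 (-0.70 ± 0.092, limma, adjusted p = 0.0177). The cell cycle inhibitor CDKN1A rose from 30.3 and 31.1 FPKM to 41.8 and 41.6, with a change of 0.43 (limma, adjusted p = 0.00919). The AP-1 gene JUNB rose from 43.5 and 45.9 to 56.4 and 59.5, with a change of 0.37 (adjusted p = 0.0186). CYR61 and CTGF, targets shared with YAP, did not pass (limma, -0.13 and 0.12). All 7 targets called by limma changed back after washout by limma. GDF9, SMAD1, SMAD3, SMAD5, SMURF2, CTDSP1, THBS1, BHLHE40, CDKN1A, JUNB, CTGF and LTBP2 share exon bases with genes on the opposite strand. Without a stated strand setting their reads cannot be told apart from those of the partner.

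**Figure D3:**
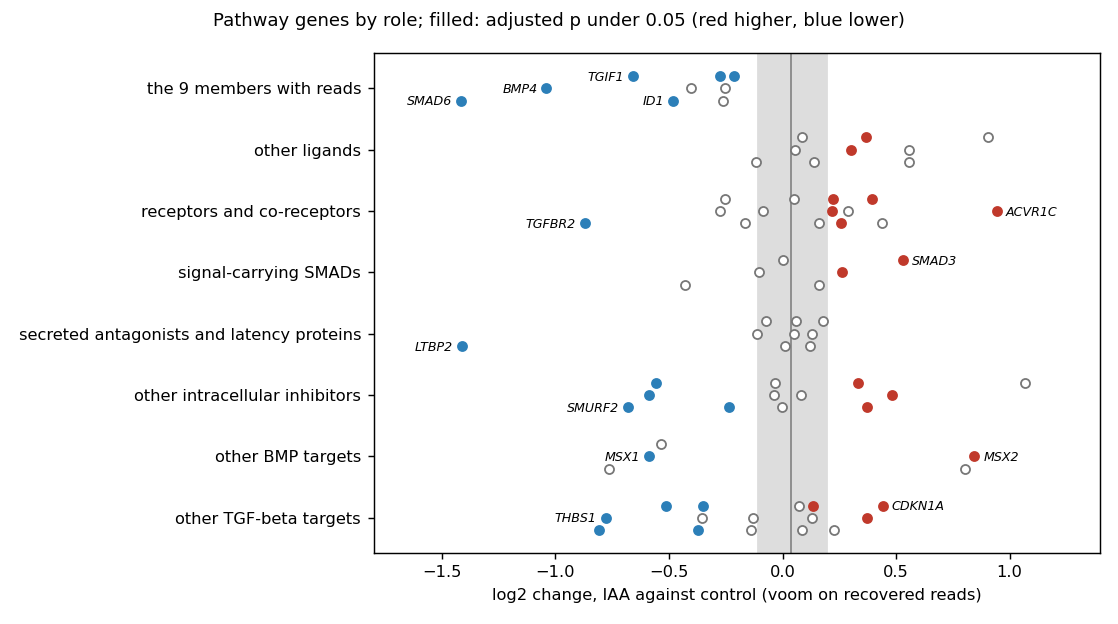
Log2 change of IAA against control by voom on recovered reads for the 9 members and the 70 other pathway genes with a mean of at least 10 reads, in rows by role. Filled points passed an adjusted p of 0.05 (red higher, blue lower), the grey band runs from the lower to the upper quartile of all 14811 genes (-0.11 to 0.19) and the line is their median of 0.04. The members' points are all below 0, while the other roles hold points on both sides.

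The search for near genes covered the 8317 genes at or above the FPKM limit, each centred on its mean. For BMP4, ID1 and TGIF1 the 3 nearest genes were taken, by Euclidean distance in log2(FPKM + 1) over the 6 libraries. For BMP4 they were HS3ST1, a heparan sulfate sulfotransferase (distance 0.07), the nuclear receptor NR2F1 (0.11) and SOX9, a transcription factor of the crypt base (0.13). SOX9 was at 32.3 and 34.8 FPKM in control, 17.2 and 17.7 under IAA and 32.7 and 32.0 following washout. For ID1 they were the actin cross-linker FLNC (0.07), the intestinal transcription factor KLF5 (0.08) and the nucleolar protein MYBBP1A (0.08). For TGIF1 they were LZTS2 (0.05), RBM12 (0.06) and C17orf96 (0.08). The log2(FPKM + 1) scale shrinks changes at low FPKM, so a near gene can differ from the member in its ratio to control. HS3ST1, for one, was at 3.42 and 3.36 FPKM in control and 1.26 and 1.21 under IAA. The libraries are the same for every gene, and these distances are a description.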

How the data were processed

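The deposited values are FPKM, 1 per gene and library. HISAT, Bowtie2, HTSeq, edgeR and the build hg19 are named in the submitters' processing notes, and no source used here gives versions, annotation or filters. RefSeq promoter bases are from GRCh38.p14 and were joined by symbol only. The members and gene lists were chosen with earlier results of these data known.

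Genes whose FPKM averaged 1 or more were fitted in limma 3.58.1 (R 4.3.3), with a trend, on log2(FPKM + 1), as a mean per group over all 6 libraries (3 residual and 1.81 prior degrees of freedom). P-values are two-sided and Benjamini-Hochberg adjusted over all genes tested, and called means an adjusted p under 0.05. Folds are ratios of mean FPKM.

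The FPKM steps were tested on the values. For 99.99% of 11784 genes with at least 600 reads over the 6 libraries they implied a whole gene length (tolerance 0.05 bases), and whole reads were recovered for 100.0% of the 21707 genes above 0 (tolerance 0.02 reads, or 0.1 under 0.0001 FPKM). GENCODE 29 spans fixed 17998 of these, 3124 took the solution nearest to the span and 585 the smallest, so there whole reads were imposed. Of the members, SMAD6, SMAD7 and TGIF1 took the nearest solution. Their implied lengths were 79773, 30859 and 46804 bases, against spans of 80621, 32200 and 48371. In simulated data recovery was exact for 100.0% of 4134 genes with at least 10 reads. Recovered reads summed to 104.64% to 105.03% of the library totals that the steps gave. Genes with a mean of at least 10 recovered reads were tested with voom, an alternative to the test on FPKM, which called 3535 genes with IAA against control.

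Named genes are the 10 members, MLLT1 and CYP1A1 as checks, up to 4 called genes of largest change and 2 uncalled genes of highest FPKM per pathway list, and the 3 nearest genes of called members. Where not all of a list's named genes are described, the list's counts cover them.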

Additional observations from a re-analysis of the deposited data

How the results depend on the processing

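With 2 libraries per group, calls near the threshold depend on single libraries. Over the single-member results, 287 alternatives gave the same direction and call, 30 lost the call, 5 gained it and 8 changed sign, all in comparisons without a call. BAMBI washout against IAA (-0.01 by limma) became 0.018 as TPM and ran from -0.093 to 0.068 with 1 library left out. In the same way ID2 washout against IAA (0.08) ran from -0.002 to 0.169, ID3 washout against control (0.03) from -0.029 to 0.094, and SKIL washout against IAA (-0.01 by voom) from -0.193 to 0.174, with 0.174 and 0.155 without the second IAA and the second washout library. BMP4 passed in all 14 alternatives in both comparisons with IAA (limma and voom, adjusted p up to 0.0343 and 0.0373), and SMAD6 in all 8. ID1 and TGIF1 lost their limma call when any library of the groups compared was left out (adjusted p 0.0577 to 0.0686 and 0.0514 to 0.0674 with IAA against control, and 0.0559 to 0.0697 and 0.0509 to 0.0532 for washout against IAA). BAMBI passed with IAA against control when the washout libraries were not used (limma, adjusted p = 0.0491) or 1 of them was left out (0.0494).

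For IAA against control, 1092 genes changed by limma, 3535 by voom, 536 with only the groups compared, 486 with the replicate block, and 50 to 534 with 1 library left out. The members changed were 3 by limma, 6 by voom and 1 to 4 with 1 library left out. For washout against IAA the gene counts were 1196, 3711, 413, 532, and 46 to 421. The members changed were 4, and 1 to 3 with 1 library left out. For washout against control 0 genes changed by limma, 48 with no filter, 28 at a mean FPKM of at least 0.1 and 92 by voom. The causes were not tested, except that leaving libraries out leaves fewer samples. On recovered reads, leaving out 1 library of the groups compared could end the ID2 or the ID3 call with IAA, or the SMAD7 call after washout. The other member calls stayed, while fewer of all genes were called than with all libraries. These fits were added after seeing the data, and in them a lone library is taken to vary like the others.

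Same-numbered libraries did not deviate together (correlations 0.043, 0.006 and -0.027), so no pairing by number was seen. The labels do not say what a replicate number stands for. With the replicate block 3 and 4 members changed by limma, beside 486 and 532 of all 8317 genes. By voom 6 and 6 members changed with it, beside 3417 and 3571 of all 14811 genes. Rescaling FPKM to TPM kept 3 and 4 members, and moved the share of called genes that were higher from 50.5% to 38.0% with IAA and from 53.8% to 66.8% after washout. By voom the shares were 57.2% and 46.3%. The alternatives were not run gene by gene for the other pathway genes.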
